A study of Caenorhabditis elegans with 24 samples.

Results

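The UDP-glucuronosyltransferase family of Caenorhabditis elegans was followed through 64 genes whose symbols start with ugt-, of 17118 genes with a probe set of their own on the array. A gene was a member if a probe set carried its symbol and no other, and the probe set with the highest mean over all arrays stood for the gene. Of the 67 ugt genes in the RefSeq gene table, 64 were measured in this way. Within the family, genes were taken by symbol alone, but the family was chosen with earlier results of these data known.

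UDP-glucuronosyltransferases are enzymes of the endoplasmic reticulum membrane that transfer the sugar of a UDP-sugar onto small fat-soluble molecules, which makes them more water-soluble. This conjugation forms the second phase of detoxification, after oxidation by cytochrome P450 enzymes and before export by transport proteins, and it also acts on the animal's own hormones and lipids. In nematodes glucose is commonly the sugar attached, the intestine is a main site of detoxification, and the substrates of most single members are not known, so no role is assigned here to any one ugt gene.

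RNA of whole young adults was measured on 24 arrays in 6 groups of 4, from 3 strains with and without UVC. N2 is the wild type. The xpa-1 strain (RB864, outcrossed 3 times) carries a deletion in the gene for the nematode XPA protein, a factor of nucleotide excision repair, and the glp-1 strain (JK1107) carries a point mutation in a Notch receptor gene that germ line stem cells need. All animals grew at 25°C, the temperature at which the glp-1 mutant makes little germ line, and were taken 24 h after the vulval crescent stage of the last larva. UV groups received 50 J/m2 of UVC with an emission peak at 254 nm and were frozen 3 h later, and control groups received none. Each group held 2 arrays made in 2007, from 500 pg of RNA amplified with a TargetAmp kit, and 2 made in 2008, from 100 ng with an Affymetrix kit, so year, amount of RNA and kit cannot be told apart. The labels do not say whether replicates were separate cultures, so p-values measure the spread between these arrays, which may be partly technical.

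The arrays of 2007 were dimmer and noisier. Medians of the deposited intensities lay between 4.24 and 8.42 in 2007 and between 68.9 and 191 in 2008, and replicates of a group correlated (Spearman, across probe sets) at 0.757 to 0.882 in 2007 and 0.953 to 0.977 in 2008. The median SD of a ugt gene between replicates of a group was 0.34 in 2007 and 0.17 in 2008. Values below are log2(intensity + 32) after quantile normalization, on which 5.00 is the lowest possible value, and differences are on that log2 scale, which understates changes of dim genes. Markers went with the strain labels: all 20 germ line and oocyte markers were lower in untreated glp-1 than in untreated N2 animals, with a median difference of -5.56, while none of the 20 lay at the lowest possible value on all 4 arrays. Their summed intensity was 15.82 to 16.39 (log2) on N2 control arrays and 9.31 to 10.6 on glp-1 control arrays. Sperm markers differed by year in N2 and xpa-1 animals: their summed intensity on N2 control arrays was 12.16 to 14.26 in 2007 and 8.71 to 9.77 in 2008.

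Most ugt genes were higher in animals with little germ line than in the wild type. Without UVC, 40 of the 64 genes (62.5%) were higher in glp-1 than in N2 at an adjusted p under 0.05, against 21.1% of all genes, and 1 was lower, against 18.6% of all genes. The median difference of the 64 genes was 1.60, beside 0.07 for all 17118 genes. Every glp-1 control array lay above every N2 control array for 39 of the 64 genes, which held for 16.3% of all genes. Of the 64 differences 57 were positive. The median level of the 64 genes lay between 6.37 and 7.03 on the N2 control arrays and between 8.60 and 8.84 on the glp-1 control arrays. In RNA of whole animals, fewer cells of a type and less RNA per cell cannot be told apart.

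**Figure D1:**
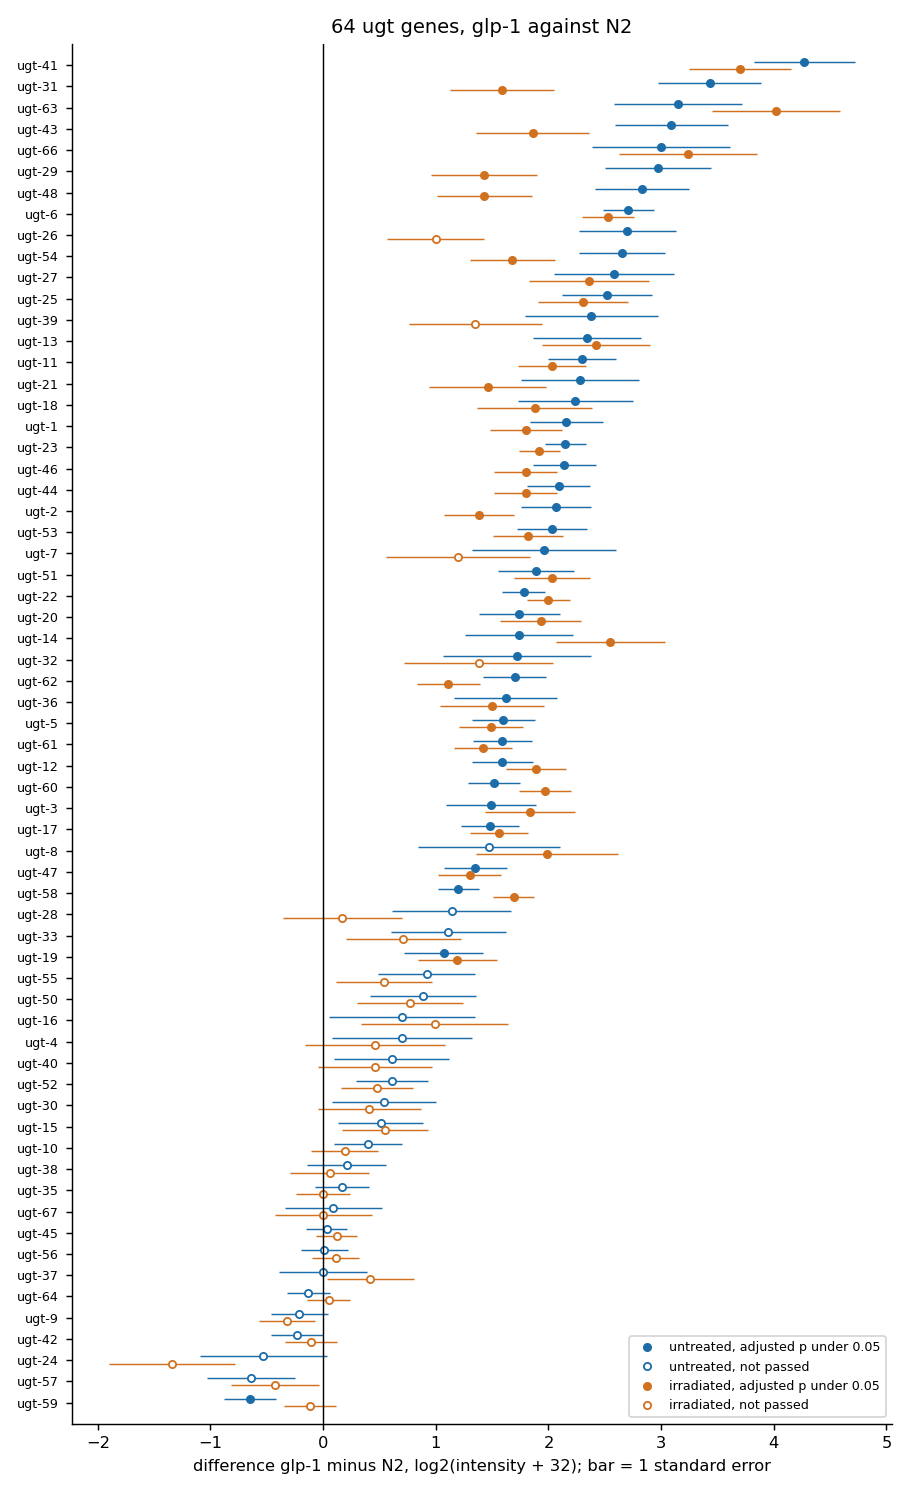
Difference between glp-1 and N2 animals for each of the 64 ugt genes, on the log2(intensity + 32) scale, without UVC (blue) and with UVC (orange), 4 arrays per group. Points are the fitted differences and bars 1 standard error; filled points passed an adjusted p of 0.05, which was the case for 41 genes without UVC (40 higher, 1 lower) and 37 with it.

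The largest difference was that of ugt-41. Its values were 5.00, 6.80, 6.36 and 7.30 on the N2 control arrays and 10.63, 9.91, 10.83 and 11.16 on the glp-1 control arrays, each time with the arrays of 2007 first. The groups were far apart in both years, and the fitted difference was 4.27 (SE 0.45, limma adjusted p = 2.15e-07). Next came ugt-31 with a difference of 3.43 (SE 0.46), ugt-63 with 3.15 (SE 0.57) and ugt-43 with 3.09 (SE 0.50). For ugt-63 the N2 arrays read 7.59, 6.11, 5.80 and 7.70 and the glp-1 arrays 9.83, 9.45, 9.46 and 11.07. All glp-1 values exceeded all N2 values, and the N2 values were widely spread within each year.

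The smallest adjusted p did not belong to the largest difference. The gene ugt-23 had the smallest adjusted p of the family, 8.43e-09, with a difference of 2.15 (SE 0.18). It read 8.93, 8.85, 9.03 and 9.28 on N2 control arrays and 11.24, 10.83, 11.13 and 11.49 on glp-1 control arrays, so the replicates of a group were close together in both years. For ugt-6 the values were 7.25, 6.78, 7.71 and 7.69 in N2 and 9.93, 9.90, 10.26 and 10.18 in glp-1, a difference of 2.71 (SE 0.23, adjusted p = 1.16e-08). Among the 10 largest rises the remaining genes were ugt-66 with 3.00, ugt-29 with 2.97, ugt-48 with 2.83, ugt-26 with 2.70 and ugt-54 with 2.65. Of the 40 genes that were higher, 5 differed by more than 3, 23 by more than 2 and all 40 by more than 1, the smallest being 1.07.

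For ugt-66 the N2 values lay apart by year. Its N2 control arrays read 9.37 and 7.05 in 2007 and 5.00 and 5.00, the lowest possible value, in 2008, while the glp-1 control arrays read 9.90, 9.56, 10.08 and 8.89. It was the single gene of the 10 whose groups overlapped. The fitted difference was 1.51 in 2007 and 4.49 in 2008, the latter set by the lowest possible value, and the test of the difference between years did not pass (2.97, SE 0.80, adjusted p = 0.0906). The genes ugt-27 and ugt-36 lay at or near the lowest possible value in N2, at 5.00 on 3 and on all 4 control arrays, so their differences of 2.58 and 1.62 are set by that value and not by a measured N2 level.

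The brightest members, by their mean over all arrays, were ugt-58, ugt-44, ugt-23, ugt-26 and ugt-22, and all of them were among the 40. For ugt-58 the N2 control arrays read 10.56, 10.38, 9.53 and 9.60 and the glp-1 control arrays 11.44, 11.36, 10.96 and 11.11. The 2007 arrays were higher in both strains and the gap between strains was present in each year, with a fitted difference of 1.20 (SE 0.18, adjusted p = 1.76e-05). The difference was 2.09 (SE 0.28) for ugt-44 and 1.78 (SE 0.19) for ugt-22.

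**Figure D2:**
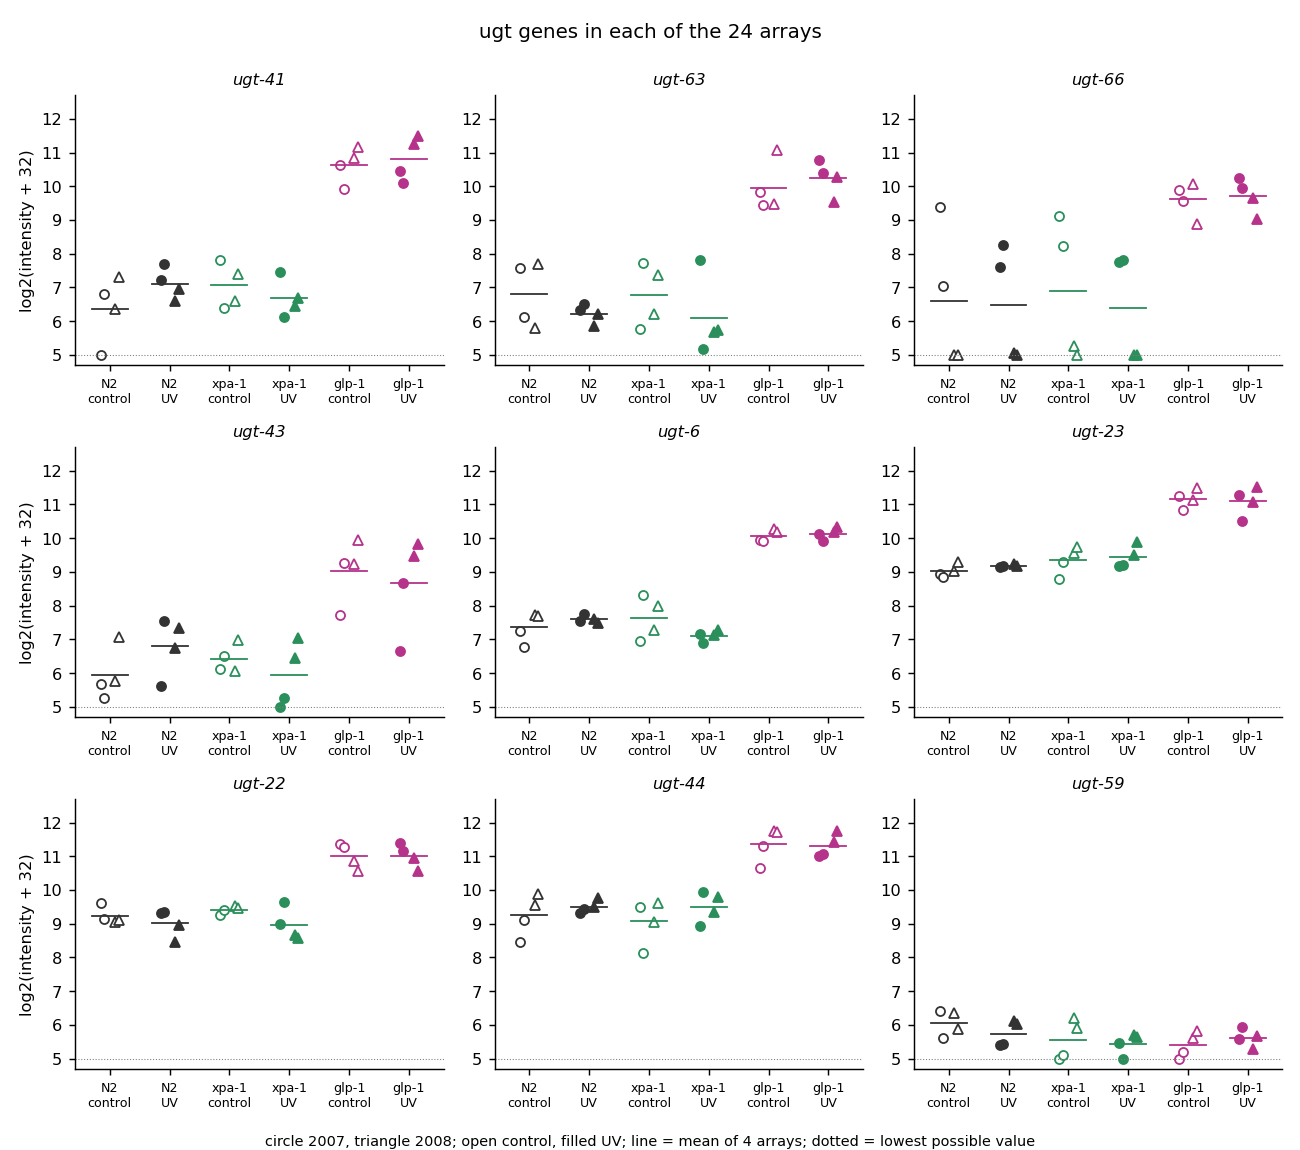
Values of 9 ugt genes on each of the 24 arrays, as log2(intensity + 32), by strain and treatment; circles are arrays of 2007 and triangles of 2008, open symbols controls and filled symbols UV, lines are means of 4 arrays and the dotted line marks 5.00. In ugt-41, ugt-63, ugt-6, ugt-23, ugt-22 and ugt-44 all 8 glp-1 arrays lie above all 16 arrays of the other strains, ugt-66 lies at or just above 5.00 on N2 and xpa-1 arrays of 2008, and ugt-59 shows no such step.

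The remaining 24 genes did not pass the test as higher in glp-1, which does not show that they were equal in the strains. For some of them, as ugt-28 and ugt-50, every glp-1 control array lay above every N2 control array. The single gene that was lower, ugt-59, read 6.41, 5.60, 6.34 and 5.88 in N2 and 5.00, 5.19, 5.62 and 5.82 in glp-1. These ranges overlap near the lower end of the scale, the difference was -0.65 (SE 0.23, adjusted p = 0.0326), and leaving out 1 array ended the call in 5 of 8 cases (N2 control 2007-1 or 2008-1, glp-1 control 2007-1, 2007-2 or 2008-1), with adjusted p up to 0.144. For ugt-8, ugt-28 and ugt-33 the difference exceeded 1 without passing the test. In 2008 alone these genes passed as higher (adjusted p = 0.00787, 0.0104 and 0.000304). The gene ugt-28 read 8.39, 8.60, 8.22 and 7.72 in N2 against 9.68, 9.90, 9.15 and 8.77 in glp-1 (difference 1.14, SE 0.53, adjusted p = 0.102). For 9 genes the difference lay between -0.3 and 0.3. Among these, 2 were bright: ugt-64, with a difference of -0.13 (SE 0.19), and ugt-45, with 0.03 (SE 0.18). The gene ugt-45 was also the single member whose 12 arrays of 2007, at 9.68 to 10.42, did not overlap its 12 arrays of 2008, at 7.01 to 8.10. How many of all genes separated by year in this way was not counted. Of the 24 genes, 14 lay at the lowest possible value on at least 1 array.

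Probe sets of the same gene agreed for ugt-46 and disagreed for ugt-50. The probe set that stood for ugt-50 differed by 0.89 between glp-1 and N2 controls (adjusted p = 0.161), another one by 2.86 (adjusted p = 4.86e-07) and the third by 0.62 (adjusted p = 0.232), so the count of 40 leaves out a gene that another of its probe sets would have added. For 13 members the probe set carries a suffix that Affymetrix gives to sets whose probes can match more than 1 transcript. Among those named here these are ugt-5, ugt-6, ugt-12, ugt-24, ugt-29, ugt-46, ugt-48, ugt-50, ugt-51, ugt-58 and ugt-64, and signal from a related gene cannot be told apart in them.

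The same comparison in irradiated animals took its group means from other arrays and gave nearly the same genes. The normalization, the year term and the spread of each gene came from all arrays together, controls included. The calls with and without UVC are therefore not independent. With UVC, 37 ugt genes were higher in glp-1 than in N2, against 21.9% of all genes, and 0 were lower, against 19.7% of all genes. At an unadjusted p under 0.05, 1 was lower (ugt-24, -1.34), with a difference of -2.76 in 2007 and 0.07 in 2008. The share of all genes lower at that limit was not counted. Of the 37 higher genes, 36 were among the 40 found without UVC, which is 90% of the longer list and 97.3% of the shorter one. The same overlap was not counted for all genes. The gene added was ugt-8, and ugt-7, ugt-26, ugt-32 and ugt-39 were higher in controls alone. That 4 genes passed in controls alone does not show that their difference changed with UVC, since the test of that change, given further on, called no ugt gene. The median difference was 1.42, beside 0.15 for all genes, and for 25 members every glp-1 array lay above every N2 array, as for 15.4% of all genes.

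The order of the largest fitted differences was not the same with UVC, though the test of a change with UVC called no ugt gene. The largest was now that of ugt-63, whose N2 UV arrays read 6.32, 6.52, 5.85 and 6.20 and whose glp-1 UV arrays read 10.77, 10.38, 9.53 and 10.28. The groups were separated by more than 3 units, and the difference was 4.02 (SE 0.57, adjusted p = 8.93e-06). It was followed by ugt-41 with 3.70 (SE 0.45), ugt-66 with 3.24 (SE 0.61), ugt-14 with 2.55 (SE 0.48), ugt-6 with 2.53 (SE 0.23) and ugt-13 with 2.42 (SE 0.48). Some genes with a large gap in controls had a smaller fitted gap here, as ugt-31 with 1.59 (SE 0.46), ugt-29 with 1.43 (SE 0.47) and ugt-48 with 1.43 (SE 0.42). The second probe set of ugt-48 gave 1.07 and did not pass the test (adjusted p = 0.129).

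Both years showed the strain difference, with more genes passing in the less noisy one. Without UVC, 22 ugt genes were higher in 2007 alone, against 9.52% of all genes, and 45 in 2008 alone, against 26.9% of all genes, with medians of 1.34 and 1.81. With UVC the counts were 15 in 2007, against 9.45% of all genes, and 46 in 2008, against 27.2% of all genes, with medians of 0.92 and 1.89. The strain difference without UVC differed between the years for 0 ugt genes and for 1.29% of all genes, and 7 ugt genes (10.9%) had an unadjusted p under 0.05 in that test, beside 13.5% of all genes. The count of 0 depended on the scaling, and median centring or quantile normalization within each year gave many more calls, as listed at the end. After ugt-66 the smallest p values were those of ugt-64 with 0.93 (SE 0.32, adjusted p = 0.196) and ugt-12 with 1.02 (SE 0.36, adjusted p = 0.213).

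Other genes of detoxification were counted from lists of the same kind. Without UVC, 37 of 73 cytochrome P450 genes (cyp-), which carry out the first, oxidative phase, were higher in glp-1 and 3 were lower, with a median difference of 0.87. Of 40 glutathione S-transferase genes (gst-), whose enzymes attach glutathione in the second phase, 21 were higher and 1 was lower, with a median of 0.88. Of 21 genes of ATP-driven export pumps (pgp- and mrp-) 15 were higher and 2 lower, with a median of 1.65. The pumps pgp-12 and pgp-5 differed by 2.98 (SE 0.60) and 2.96 (SE 0.51), whereas mrp-7 and mrp-4 were lower, by -3.59 (SE 0.32) and -1.98 (SE 0.14). All of these counts stand beside the 21.1% of all genes that were higher and the 18.6% that were lower.

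Genes that supply the sugar donor were counted in the same comparison. Of 16 genes for making or transporting UDP-sugars, 2 were higher in glp-1, beside 21.1% of all genes, and 3 were lower, beside 18.6%, which is close to the share of all genes. Their median difference was -0.13. The gene sqv-4, whose enzyme makes UDP-glucuronic acid from UDP-glucose, was lower by -1.60 (SE 0.32, adjusted p = 0.000414), and sqv-7, which encodes a transporter of UDP-sugars, by -1.32 (SE 0.23, adjusted p = 0.000104). The nucleotide-sugar transporter gene nstp-6 was higher by 2.16 (SE 0.24, adjusted p = 5.78e-07).

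Among 23 regulators of detoxification and longevity, 11 were higher in glp-1, beside 21.1% of all genes, and 2 were lower, beside 18.6%. Those higher included nhr-80, a nuclear receptor gene of fat metabolism, with 2.23 (SE 0.35), nhr-8, a nuclear receptor gene of the xenobiotic response, with 1.78 (SE 0.29), sbp-1, the nematode SREBP gene, with 1.78 (SE 0.22), and pqm-1, a zinc finger factor gene, with 1.52 (SE 0.25). Transcript levels of skn-1 and daf-16, which encode regulators of stress and longevity responses, differed by -0.35 (SE 0.25, adjusted p = 0.295) and 0.52 (SE 0.25, adjusted p = 0.122) and did not pass the test. Those lower were hsf-1, the heat shock factor gene, with -2.35 (SE 0.36), and cep-1, the nematode p53 gene, with -3.78 (SE 0.25).

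Markers of somatic tissues were counted beside the 21.1% of all genes that were higher and the 18.6% that were lower. Of 19 intestine markers 12 were higher in untreated glp-1 and 0 lower, with a median difference of 1.06, among them ges-1 with 2.47 (SE 0.30) and elt-2, a gene of an intestinal GATA factor, with 1.69 (SE 0.24). The markers elt-2 and elt-7 are also counted among the regulators, and pgp-1 among the export pumps. The summed intensity of the intestine markers was 14.40 to 15.09 (log2) on N2 control arrays and 15.34 to 15.84 on glp-1 control arrays, and none of the 19 lay at the lowest possible value throughout a group. Of 10 neuron markers 5 were higher and 0 lower, with a median of 0.98. Of 10 body wall muscle markers 2 were higher, close to the share of all genes, with a median of 0.70, and of 11 hypodermis markers 2 were higher and 2 lower, also close to it, with a median of 0.06. The part of tissue composition in the difference of the ugt genes was not tested.

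No difference of a ugt gene between xpa-1 and N2 animals was detected. Without UVC, 0 ugt genes differed between xpa-1 and N2 at an adjusted p under 0.05, as did 0.0117% of all genes, and 3 (4.69%) did at an unadjusted p under 0.05, against 3.71% of all genes. The smallest p values belonged to ugt-38 with a difference of 0.91 (SE 0.35, adjusted p = 1), ugt-51 with -0.83 (SE 0.34) and ugt-59 with -0.50 (SE 0.23). For ugt-38 the xpa-1 control arrays read 7.67, 6.07, 5.33 and 5.00 and the N2 control arrays 5.00, 5.00, 5.24 and 5.20, so the difference came from 2007. In irradiated animals 0 ugt genes differed, as did 0.0175% of all genes, and 2 did at an unadjusted p under 0.05 (3.12%), against 2.97% of all genes. These were ugt-53 with -0.86 (SE 0.31) and ugt-6 with -0.49 (SE 0.23), and ugt-6 was the one whose groups did not overlap. Over the 64 genes the standard error had a median of 0.38, so small differences were not detectable.

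No ugt gene passed the test for a change 3 h after UVC in N2 or in xpa-1. In N2, 0 ugt genes and 0% of all genes passed an adjusted p of 0.05, and 5 ugt genes (7.81%) had an unadjusted p under 0.05, against 2.74% of all genes. In xpa-1, 0 ugt genes and 0.0409% of all genes passed, and 11 ugt genes (17.2%) had an unadjusted p under 0.05, 4 of them higher and 7 lower, against 6.11% of all genes. The genes ugt-26, ugt-31, ugt-29 and ugt-48 had a positive difference at an unadjusted p under 0.05 in both strains.

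The values of ugt-26 were 8.33, 9.51, 7.18 and 7.75 on N2 control arrays and 10.95, 10.41, 9.80 and 9.36 on N2 UV arrays. In xpa-1 they were 9.66, 9.02, 7.20 and 7.52 without and 10.46, 10.75, 9.90 and 9.56 with UVC. Within each year every UV array exceeded every control array of its strain, while the years themselves were offset. The differences were 1.94 (SE 0.43, adjusted p = 1) in N2 and 1.82 (SE 0.43, adjusted p = 0.178) in xpa-1. For ugt-31 the N2 arrays read 5.37, 8.24, 6.86 and 6.64 without and 8.71, 9.17, 8.34 and 8.40 with UVC, and the xpa-1 arrays 8.47, 7.37, 6.81 and 7.23 without and 9.19, 9.64, 8.81 and 8.63 with it. Control and UV arrays did not overlap in either strain, with differences of 1.88 (SE 0.46) and 1.60 (SE 0.46). The differences were 1.61 (SE 0.47) and 1.36 (SE 0.47) for ugt-29 and 1.25 (SE 0.42) and 1.09 (SE 0.42) for ugt-48, in N2 and in xpa-1. In N2, 4 members had all UV arrays above all control arrays, namely ugt-28, ugt-29, ugt-31 and ugt-48, which held for 0.789% of all genes.

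The mean of the N2 and xpa-1 responses, a comparison chosen after these values were seen, passed the test for 2 of the 64 genes, against 0.164% of all genes. These were ugt-26, with 1.88 (SE 0.30, adjusted p = 0.0132), and ugt-31, with 1.74 (SE 0.33, adjusted p = 0.0345). The genes ugt-29 with 1.49 (adjusted p = 0.0874), ugt-48 with 1.17 (adjusted p = 0.172) and ugt-12 with -0.79 (SE 0.19, adjusted p = 0.153) did not pass. In 2007 alone neither gene passed (1.51, adjusted p = 0.435 for ugt-26, and 1.81, adjusted p = 0.66 for ugt-31), and in 2008 alone both did (2.25, adjusted p = 0.0186, and 1.66, adjusted p = 0.0246). Leaving out 1 of the 16 arrays ended the call of ugt-26 once (without xpa-1 control 2008-1, adjusted p = 0.0503) and that of ugt-31 in 13 cases, all but those of N2 control 2007-1 and 2007-2 and xpa-1 control 2007-1, with adjusted p up to 0.0963.

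**Figure D3:**
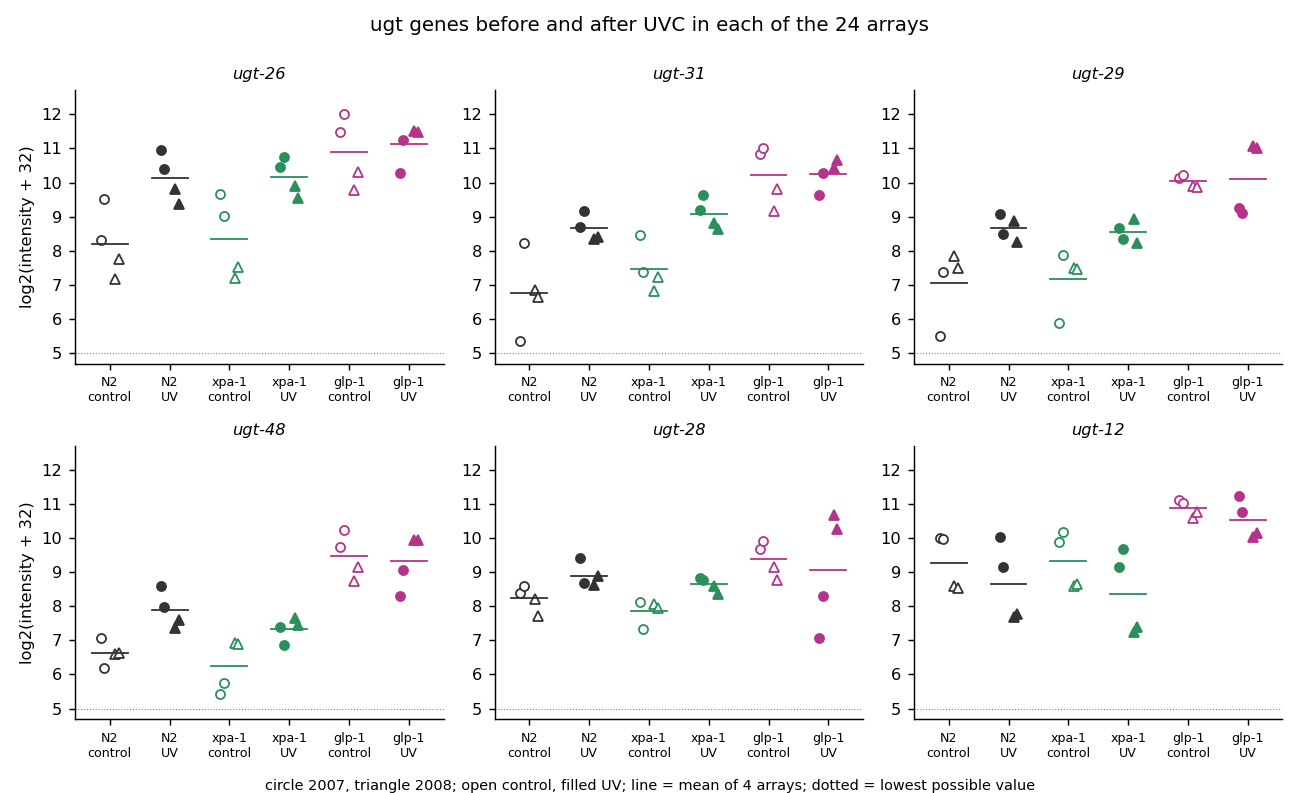
Values of 6 ugt genes on each of the 24 arrays, as log2(intensity + 32), before and after UVC; circles are arrays of 2007 and triangles of 2008, open symbols controls and filled symbols UV, and lines are means of 4 arrays. In N2 and xpa-1 the UV arrays of ugt-31 and ugt-29 lie above the controls, whereas in glp-1 the UV arrays of 2007 lie below and those of 2008 above their controls in all but ugt-12.

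In glp-1 animals these 4 genes were higher than in N2 already without UVC. No ugt gene passed the test for the UVC response in glp-1, as was the case for 0% of all genes, and 1 of the 64 (1.56%) had an unadjusted p under 0.05, against 7.22% of all genes. That gene was ugt-54, with -0.96 (SE 0.38, adjusted p = 0.594). The values of ugt-26 in glp-1 were 11.48, 12, 9.79 and 10.31 without UVC and 10.29, 11.26, 11.52 and 11.47 with it, a difference of 0.24 (SE 0.43). The differences of ugt-31, ugt-29 and ugt-48 were 0.04 (SE 0.46), 0.07 (SE 0.47) and -0.15 (SE 0.42). The control arrays of glp-1 are also those of the strain comparison above, so the high control level and the small response are not independent measurements.

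The test of a difference in UVC response between strains called no ugt gene. Between glp-1 and N2 the percentage of all genes called was 0%, and 4 ugt genes had an unadjusted p under 0.05, where 4.09% of all genes did. They were ugt-31 with -1.83 (SE 0.66), ugt-26 with -1.70 (SE 0.61), ugt-29 with -1.54 (SE 0.66) and ugt-48 with -1.40 (SE 0.59), each with an adjusted p of 0.995. Between xpa-1 and N2 the percentage of all genes called was again 0%, and 3 ugt genes had an unadjusted p under 0.05, where 2.1% of all genes did: ugt-53 with -1.37 (SE 0.44), ugt-51 with 1.22 (SE 0.48) and ugt-6 with -0.77 (SE 0.33), all with an adjusted p of 1.

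For 4 ugt genes the UVC response of glp-1 animals differed between the 2 years, while the median response of the 64 genes was -0.17 in 2007 and 0.04 in 2008. In 2007 UVC minus control was -0.96 for ugt-26, -0.98 for ugt-31, -1.0 for ugt-29 and -1.30 for ugt-48, and in 2008 it was 1.44, 1.07, 1.15 and 1.01. The difference between years, a test added after the values were seen, passed for 4 of the 64 genes in glp-1, against 2.14% of all genes. It did not pass for ugt-31 (2.05, SE 0.90, adjusted p = 0.326) or ugt-29 (2.15, SE 0.80, adjusted p = 0.226). Those that passed were ugt-28 with 3.63 (SE 0.53, adjusted p = 0.00229), ugt-1 with 2.09 (SE 0.40, adjusted p = 0.014), ugt-48 with 2.31 (SE 0.47, adjusted p = 0.0198) and ugt-26 with 2.41 (SE 0.58, adjusted p = 0.0476). For ugt-28 the glp-1 arrays of 2007 read 9.68 and 9.90 without and 7.06 and 8.29 with UVC, and those of 2008 read 9.15 and 8.77 without and 10.68 and 10.26 with it. Control and UV arrays of this gene did not overlap in either year, and the directions were opposite. None of the 20 germ line and oocyte markers passed the test for the UVC response in glp-1, and their median difference was 0.80. Their summed intensity was 9.31 to 10.6 on glp-1 control arrays and 10.82 to 12.02 on glp-1 UV arrays, without overlap, and in both years. The part of year, kit and residual germ line in these year differences was not tested.

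In xpa-1 the UVC response differed between the years for 1 gene, by a test likewise added after the values were seen. The test of the difference between years passed for ugt-53 with 2.21 (SE 0.26, adjusted p = 0.0059), against 0.0526% of all genes. At an unadjusted p under 0.05 there were 8 ugt genes in xpa-1 (12.5%), beside 5.46% of all genes. In N2 the same added test passed for 0 ugt genes and 0% of all genes. There 2 ugt genes (3.12%) had an unadjusted p under 0.05, beside 2.99% of all genes. The xpa-1 arrays of ugt-53 in 2007 read 7.69 and 8.08 without and 5.76 and 5.58 with UVC, and in 2008 6.59 and 6.86 without and 6.75 and 6.70 with it, so a gap was present in 2007 alone.

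In 2008 alone, single genes passed the test for the UVC response. In xpa-1 the gene was ugt-12, at -1.32 (adjusted p = 0.00932), against 0.0876% of all genes. In glp-1 they were ugt-12 at -0.59 and ugt-48 at 1.01 (adjusted p = 0.0424 for each), against 0.736% of all genes. The N2 arrays of ugt-12 in 2008 read 8.58 and 8.53 without and 7.67 and 7.76 with UVC, a difference of -0.84 that did not pass (adjusted p = 0.15). In all 3 strains ugt-12 was lower on UV than on control arrays in that year.

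**Figure D4:**
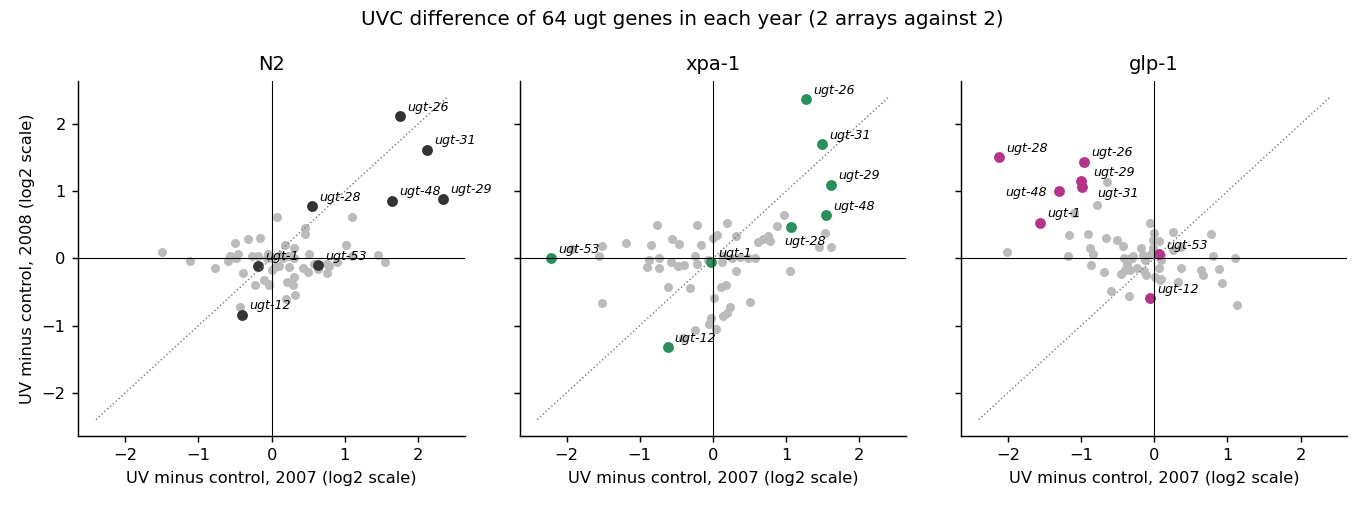
UVC minus control for each of the 64 ugt genes in 2007 (horizontal) and 2008 (vertical), on the log2 scale, in N2, xpa-1 and glp-1 animals, each value from 2 arrays against 2; coloured points are the named genes and the dotted line marks equal values. In N2 and xpa-1 the genes ugt-26, ugt-31, ugt-29 and ugt-48 lie in the upper right, and in glp-1 they lie in the upper left, with ugt-28 at -2.12 and 1.51.

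Many ugt genes are neighbours in the genome. By the order of protein-coding genes in the RefSeq table (assembly WBcel235, used for order only), 30 members stood next to another ugt gene and 34 stood alone. Of the 64 members 40 lay on chromosome V, where 23 were higher in untreated glp-1, 11 on IV with 7 higher, 5 on I with 4 higher, 4 on X with 2 higher, 3 on III with 3 higher and 1 on II with 1 higher. Over all chromosomes 21.1% of all genes were higher in glp-1 without UVC and 21.9% with it. The share of all genes on each chromosome was not counted, so the chromosomes cannot be compared by these counts. Calls were mixed within the longer runs. In the run ugt-26, ugt-27, ugt-28 and ugt-25 on chromosome I, 3 of 4 genes were higher, with differences of 1.14 to 2.70, and the fitted UVC response in N2 ranged from 0.07 to 1.94. In the run ugt-11, ugt-9, ugt-10, ugt-67, ugt-8, ugt-14 and ugt-13 on chromosome V, 3 of 7 were higher, with differences of -0.21 to 2.34. The outer genes ugt-11, ugt-14 and ugt-13 passed the test and the genes between them did not. Of the latter, ugt-8 differed by 1.47 (SE 0.63, adjusted p = 0.0786) and passed with UVC, where 4 of 7 were higher. In the run ugt-5, ugt-4, ugt-6 and ugt-3 on chromosome V, 3 of 4 were higher, with differences of 0.70 to 2.71.

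**Figure D5:**
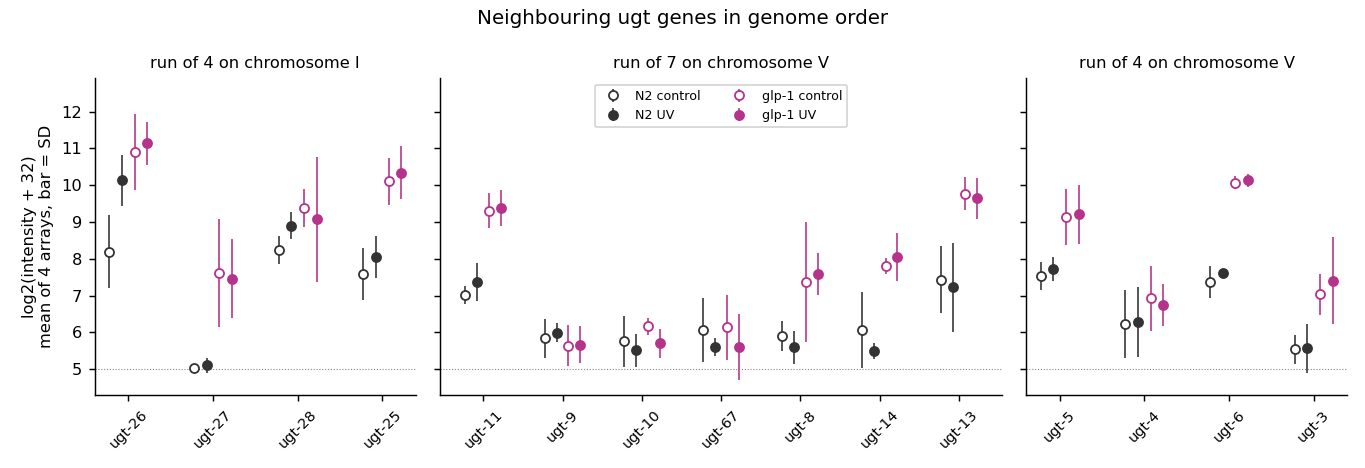
Levels of ugt genes in 3 runs of neighbours, in genome order (spacing not to scale), as means of 4 arrays with SD, on the log2(intensity + 32) scale, in N2 and glp-1 animals without and with UVC; the dotted line marks 5.00. In the run of 7 the glp-1 means of ugt-11, ugt-8, ugt-14 and ugt-13 stand above those of N2. The means of ugt-9, ugt-10 and ugt-67 stay between 5 and 7 in all 4 groups.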

How the data were processed

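Whole-animal RNA of 24 samples was hybridized to 1-colour Affymetrix arrays, per the labels' protocols. The values are intensities the authors deposited, in 1 table of 22548 probe sets, on a linear scale with 18.6% of values below 0; how probes were summarised, background-corrected and scaled was not given in the sources used here.

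Intensities were quantile normalized over all 24 arrays, set to 0 where below 0, and taken as log2(value + 32). Differences came from limma (3.58.1, R 4.3.3): a mean per group plus a term for year, 17 residual degrees of freedom, two-sided moderated tests, Benjamini-Hochberg adjustment over all probe sets, call at 0.05. Year differences came from a fit with a mean per strain, treatment and year, and single years were fitted alone.

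Probe sets were named from GEO's platform annotation (20766 with 1 gene, 887 with several, 895 with none); 68 name 1 ugt gene, and 1 naming a second gene was left out. Named genes were the 5 brightest members, the 10 largest called rises and up to 8 falls between untreated glp-1 and N2, up to 6 called members or the 3 smallest p elsewhere, members with disagreeing probe sets, and runs of 4 or more neighbours; ugt-7, ugt-24, ugt-32, ugt-33, ugt-36, ugt-39, ugt-45 and ugt-46 were chosen after their values were seen. The members and lists were chosen with earlier results of these data known.

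A pairing of arrays by replicate number was examined through the correlation, within a year, of the difference between replicates 1 and 2 in the compared groups. It was over 0.1 in both years for the glp-1 response (0.11 and 0.39) and for xpa-1 UV against N2 UV (0.18 and 0.30), and not in the other comparisons; no label states a shared culture. The fit was tested on data made with known changes. Array number limits the precision. No sequences were used here.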

Additional observations from a re-analysis of the deposited data

Results flagged for a closer look

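In 4 of 144 groups of 4 arrays (24 named genes in 6 groups) 1 array stood apart from the other 3 by Dixon's criterion, which chance gives in about 1 of 20 groups. The gene ugt-14 read 7.60 on N2 control array 2007-2, where the others read 5.45 to 5.70. The gene ugt-22 read 9.60 on N2 control array 2007-1 and 9.04 to 9.14 on the others, and ugt-53 read 7.14 on N2 control array 2007-2 and 6.65 to 6.73 on the others. The gene ugt-38 read 5.47 on glp-1 UV array 2008-1 and 5.00 to 5.06 on the others, close to the lowest possible value.

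The response to UVC differed between the years by the test of that difference for 5 gene and strain pairs. In glp-1 the 2008 response exceeded that of 2007 by 3.63 for ugt-28, 2.41 for ugt-26, 2.31 for ugt-48 and 2.09 for ugt-1. In xpa-1 it did so by 2.21 for ugt-53. The part of the amplification kit and RNA amount, which changed with the year, was not tested.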

How the results depend on the processing

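The count of ugt genes higher in untreated glp-1 (40) fell to 22 in 2007 alone; its median (1.60) was 1.34 in 2007 alone, 0.81 with values as deposited, 1.22 with median centring, 1.91 with log2(value + 1) and 1.24 with log2(value + 100), while the median of all genes (0.07) moved to 0.32 with median centring and to 0.19 with log2(value + 1). Under UVC the count (37) was 15 in 2007 alone and 20 as deposited, and the median (1.42) 0.92 in 2007, 1.89 in 2008, 0.99 with median centring and 0.59 as deposited. With values as deposited 29 ugt genes were higher without UVC, against 9.57% of all genes, and 20 with UVC, against 7.32% of all genes. Of all genes called in either direction with those values, 29.3% were higher without and 20.8% with UVC. The 1 lower gene without UVC became 0 in 2007 alone, with 75th percentile scaling, an adjusted p of 0.01, the compared groups alone, the dimmest 40% left out, log2(value + 1), no year term and trend and robust variances, 2 as deposited, and 0 to 1 when an array was left out (0 without N2 control 2007-1 or 2008-1 and without glp-1 control 2007-1, 2007-2 or 2008-1). The 0 lower genes with UVC became 2 in 2008 alone, 3 with median centring or as deposited, 1 with 75th percentile scaling, the dimmest 40% left out, log2(value + 1) or trend and robust variances, and 0 to 1 when an array was left out.

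The test of the strain difference between years (0 higher, 0 lower, median 0.04) depended on scaling: 28 genes were higher and 1 lower with median centring (median 0.96), 25 and 1 with quantile normalization within each year (median 0.77), 9 and 1 as deposited, 1 and 0 with log2(value + 1), and 0 to 1 of each when an array was left out (N2 control 2007-2). The share of all genes called by that test under these settings was not counted. These counts can therefore not be read as particular to the ugt genes. In 2008 alone UVC gave 1 higher and 1 lower gene in glp-1 and 1 lower in xpa-1. The 2 genes of the mean N2 and xpa-1 response became 0 in 2007 alone, at an adjusted p of 0.01, with median centring, with no year term and as deposited, 1 with 75th percentile scaling, the compared groups alone, log2(value + 1) and quantile normalization within each year, and 0 to 2 when an array was left out; 1 was lower in 2008 alone. The year difference of the glp-1 response (4 higher, median 0.20) had 1 gene at an adjusted p of 0.01 or with log2(value + 1), 1 to 5 higher and 0 to 1 lower when an array was left out, and a median of 0.63 as deposited. That of xpa-1 (1 higher, median -0.15) had 0 with median centring, quantile normalization within each year, trend and robust variances and as deposited, 0 to 2 when an array was left out, and medians of -0.34 with the dimmest 40% left out, 0.04 with quantile normalization within each year, 0.12 as deposited and -0.23 to 0.10 when an array was left out.

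Differences that changed sign were all uncalled: in 2008 alone the glp-1 response of ugt-1 (0.53), ugt-51 (0.04) and ugt-54 (0.10), the xpa-1 response of ugt-53 (0.00) and its difference from N2 (0.10), ugt-53 between irradiated strains (0.17), ugt-38 between untreated strains (-0.06) and the glp-1 minus N2 response of ugt-48 (0.15); and ugt-1 in glp-1 with median centring (0.20), quantile normalization within each year (0.12) and as deposited (0.23). With the replicate block the counts were 40 and 37 higher and the medians 1.60 and 1.42, and no count moved by over 1.5 times. Over all alternatives 886 counts and medians kept their value within the limits used and 92 moved. Of named genes 966 kept side and direction, 49 lost the call, 9 gained it and 11 changed sign. Counts of 0 that stayed 0 and uncalled genes that stayed uncalled were scored as kept, so these totals do not measure robustness. Causes were not tested. The planned sequence description was not run. Genes near the lowest possible value have no measured order.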
